A study of Homo sapiens with 9 samples.

Results

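The genes described here encode the translation initiation factors of PANC1, an established human pancreatic ductal adenocarcinoma cell line, measured by RNA sequencing. They were the protein-coding rows of the deposited table with names from EIF1 to EIF6, without the EIF2AK kinases, that reached 1 FPKM in at least 3 of 9 libraries. FPKM is fragments per kilobase of transcript, a level corrected for length and for library size. The rule took 48 genes, of 52 protein-coding rows with such names at any level and of 12545 genes tested among 60612 in the table. The 4 rows below the level were EIF4E3, EIF4E1B, EIF1AY and EIF4EBP3. The member nearest the limit was EIF2S3B, an eIF2 gamma copy, which ran from 0.192 to 2.69 FPKM and reached 1 FPKM in 4 libraries. Just below the limit, EIF4EBP3 reached 1 FPKM in 1 library, at 1.10 FPKM. A further 76 pseudogene and noncoding rows bear the name of an initiation factor, 12 of them at the level, and none of them is a member.

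The libraries formed 3 groups of 3. Control cells were untreated and are labelled WT. Overexpression cells received a plasmid for flag-tagged NUSAP1, and knockdown cells received an siRNA against NUSAP1 (nucleolar and spindle associated protein 1), a mitotic spindle protein that binds microtubules. All groups were the same cell line, and the labels do not say whether replicates were separate cultures, so p-values measure the spread between these samples, which may be technical. No library with an empty plasmid or a control siRNA was analysed here, so effects of transfection and of NUSAP1 cannot be told apart. NUSAP1 itself stood between 30.9 and 42.1 FPKM in control, between 12909.9 and 13792 FPKM with overexpression and between 11.6 and 13.8 FPKM with knockdown. Its reads are part of the totals behind FPKM, so the FPKM of other genes reads lower in overexpression libraries. In log2(FPKM + 1) the median of all genes was -0.07 for overexpression against control, and in edgeR it was -0.004. Overlap between groups is given below in FPKM as deposited, so narrow gaps or overlaps with overexpression depend on this shift. Total counts ran from 57115172 to 73386227 a library. Of 7 markers of this epithelial tumour line, 6 reached 1 FPKM in some library, and KRT7 did not. The vimentin gene VIM (558 to 859 FPKM) and keratin gene KRT8 (22.1 to 40.5 FPKM) were present in every library, whereas the E-cadherin gene CDH1 was 1.77 to 1.91 FPKM in control, 0.266 to 0.314 FPKM with overexpression and 1.37 to 2.18 FPKM with knockdown. EPCAM was 1.18 to 1.68 FPKM in control and 0.632 to 1.01 FPKM with overexpression. Of 5 fibroblast markers, 2 reached 1 FPKM, with a summed level of 20.3 to 21.9 FPKM in control, 9.23 to 9.63 FPKM with overexpression and 15.2 to 16.3 FPKM with knockdown. No acinar marker of 4, endocrine marker of 2 or endothelial marker of 3 reached 1 FPKM in any library. Of 4 leukocyte markers LYZ alone did, at 1.54, 2.34 and 3.64 FPKM in control, 2.56, 0.0800 and 2.96 FPKM with overexpression and listed at 0.0001 FPKM, the table's 0, in all knockdown libraries. Of 13 hepatocyte markers, 5 reached 1 FPKM in some library. Their summed level was 0.430, 19.3 and 23.8 FPKM in control 1, 2 and 3, 15.8, 0.683 and 19.4 FPKM in overexpression 1, 2 and 3, and at most 0.336 FPKM with knockdown. Control 2 and 3 and overexpression 1 and 3 stood apart in the hepatocyte transcripts. The counts of genes called and the main fold changes are also given without these 4 libraries. Control 1, which remains, still held LYZ. The part of these markers in the results was not tested. In bulk samples of this kind, fewer cells of a type and less RNA per cell cannot be told apart.

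Translation of most cellular mRNAs starts when the small ribosomal subunit, loaded with initiator tRNA by eIF2 and held open by eIF1, eIF1A and eIF3, is brought to the capped 5′ end by eIF4E, eIF4G and the helicase eIF4A, and then scans for the start codon. eIF5 triggers GTP hydrolysis by eIF2, eIF5B joins the large subunit, and eIF2B reloads eIF2 with GTP for the next round. The pathway is held back at eIF2 by kinases that phosphorylate its alpha subunit and at the cap by eIF4E-binding proteins, which compete with eIF4G for eIF4E.

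Initiation factor mRNAs were abundant relative to the other genes tested. Their median level was 23.7 FPKM in control, 33.6 FPKM with overexpression and 22.1 FPKM with knockdown, against 5.06, 5.16 and 5.10 FPKM over all genes tested, and 45 of 48 lay above that median in each group. Together they took 1.09, 1.13 and 1.18% of all counts in control 1, 2 and 3 (1.13% ± 0.0430, SD, n = 3). The share was 1.41, 1.38 and 1.46% with overexpression (1.42% ± 0.0399) and 1.28, 1.25 and 1.32% with knockdown (1.28% ± 0.0336). The 3 groups did not overlap, with overexpression highest and control lowest. Without the counts of NUSAP1 itself, the overexpression share was 1.502% ± 0.0395. Replicates of a group differed little, with a median coefficient of variation of 6.69% in control, 7.30% with overexpression and 8.50% with knockdown, against 10.04, 10.8 and 10.6% over all genes tested. The gene EIF5 and the copy EIF2S3B varied most within groups.

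With NUSAP1 overexpressed, 25 of 48 initiation factor genes were higher than control and 2 were lower, by edgeR's quasi-likelihood test at a Benjamini-Hochberg adjusted p below 0.05. Across all genes tested, 27.4% were higher and 26.0% lower (53.4% in either direction), against 52.1% and 4.17% of the initiation factor genes. Their median log2 fold change was 0.32, with the median of all genes close to 0. Members of most functional groups were among the higher genes. They made up 3 of 4 genes grouped with eIF1 and eIF1A, the related gene EIF1AD among them. Of 6 genes grouped as eIF2 and alternative carriers of initiator tRNA, 3 were higher: EIF2S1, EIF2S2 and the separate factor EIF2A. Also higher were 3 of 5 eIF2B genes, 9 of 14 eIF3 genes, 4 of 10 genes of the cap complex and its helicases and 3 of 6 late factors. None of the 3 genes for eIF4E-binding proteins was higher. The lower genes were EIF2S3 and EIF4EBP2. The count of higher members ran from 19 to 24 when each library was left out in turn, beside 2919 to 3470 of all genes. The count of lower members was 4 without overexpression 1, 3 without knockdown 3 and 1 without overexpression 3. Of all genes, 3164, 3410 and 2825 were then lower. Without the 4 libraries with hepatocyte transcripts, 1 control and 1 overexpression library were left, whose spread was taken from the knockdown libraries. Then 7 genes were higher and 0 lower, beside 1164 higher and 1255 lower genes of all 12545, and the median log2 fold change of the members was 0.30. The 7 were EIF1 (0.90), EIF2S1 (0.90), EIF2S2 (0.55), EIF2B2 (0.79), EIF3J (0.92), EIF4A2 (1.33) and EIF4G2 (0.66), with their log2 fold changes there.

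With NUSAP1 knocked down, 5 of 48 genes were higher and 3 lower than control by the same test, 16.7% in either direction against 14.5% of all genes tested (7.02% higher and 7.43% lower). This share is near that of all genes, so the count itself says nothing particular to initiation factors, and single genes are given below. Same-numbered control and knockdown libraries deviated together. A fit with that number as a block called 9 members higher and 5 lower, beside 1087 higher and 1045 lower of all genes. It added EIF3B, EIF3I, EIF3K and EIF4E2 as higher and EIF4A2 and EIF5A2 as lower. In the fit of control and knockdown alone with the block, 4 members were higher and 2 lower, beside 609 and 783 of all genes. Of the 6 additions, EIF3K was called there and the others were not. The median log2 fold change was 0.14, against 0.02 over all genes. Scaled by library totals alone, 12 were higher and 3 lower, beside 1051 higher and 896 lower of all genes. In TPM (levels per length, scaled to the same sum in each library, by limma) 14 were higher and 2 lower. Of all genes 1414 were then higher and 449 lower, with their median moved to 0.14. The count of higher members was 3 without control 1, 2 or 3, without knockdown 1 or 3 and without overexpression 3, and 8 without knockdown 2. Of all genes, 430 to 655 were higher in the fits with 3 members higher. Without knockdown 2 it was 673, against 881 in the full fit. Without the 4 libraries with hepatocyte transcripts, 1 control library was left. By edgeR 0 members were then called, at a median of 0.16, and of all genes 5 were higher and 1 lower. The log2 fold changes of the members called in the full fit were then -0.77 for EIF6, -0.51 for EIF1AD, -0.49 for EIF4G1, 0.21 for EIF3G, 0.30 for EIF2B4, 0.38 for EIF4G2, 0.48 for EIF3C and 0.997 for EIF4EBP2. Both comparisons use the same control libraries, so the fold changes set side by side below are not independent.

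**Figure D1:**
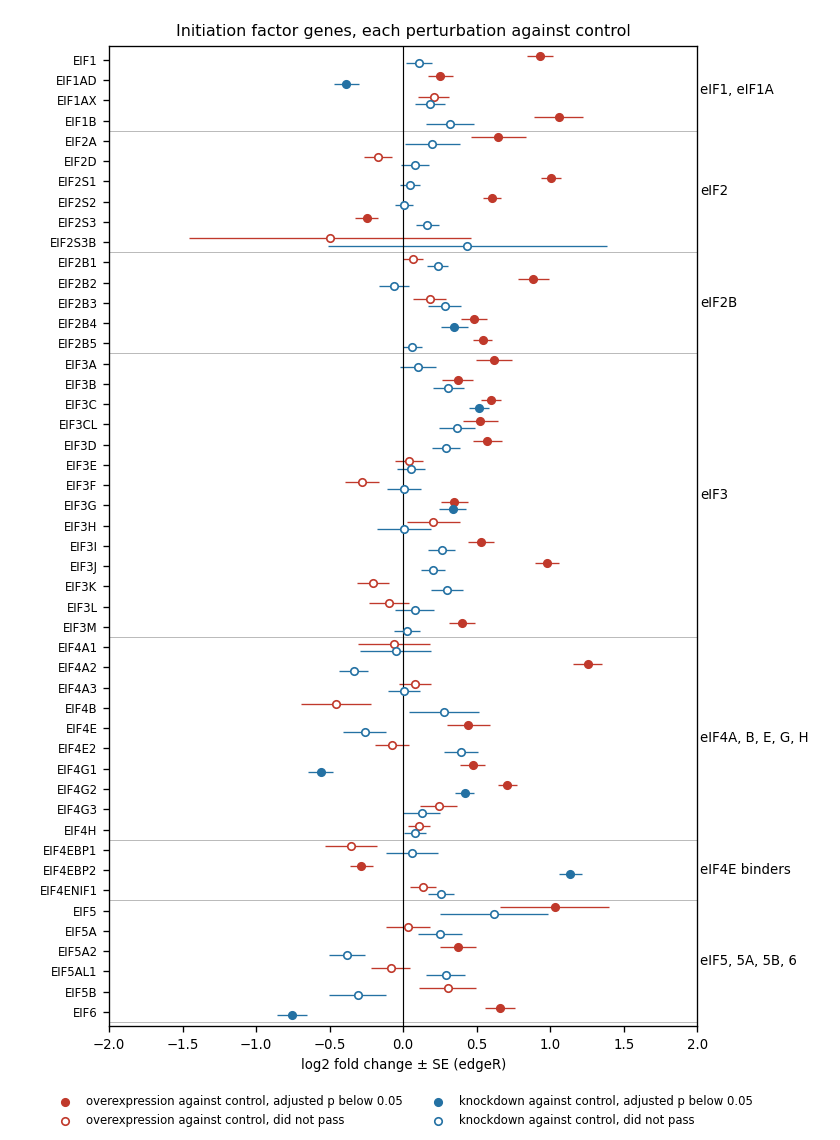
Log2 fold change with its standard error (edgeR) of each of the 48 initiation factor genes, with overexpression (red) and knockdown (blue) each against control, grouped by role. Filled points passed an adjusted p of 0.05: 25 higher and 2 lower with overexpression, 5 higher and 3 lower with knockdown, with EIF4EBP2 the highest knockdown point.

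Among the factors that keep the small subunit scanning, EIF1 and EIF1B, which encode closely related forms of the start codon gatekeeper eIF1, were higher with overexpression. EIF1 stood at 86.8, 89.9 and 99.0 FPKM in control, 169.5, 160.2 and 167.6 FPKM with overexpression and 98.4, 94.0 and 107 FPKM with knockdown. Every overexpression library lay above every other library, and control and knockdown overlapped. The log2 fold change with overexpression was 0.93 ± 0.09 (SE, adjusted p = 4.46e-05, edgeR). EIF1B, at 7.60, 7.28 and 10.6 FPKM in control, rose to 16.4, 15.3 and 18.5 FPKM with overexpression and was 12.5, 9.94 and 9.70 FPKM with knockdown. All overexpression values again exceeded the rest, at a log2 fold change of 1.06 ± 0.16 (adjusted p = 0.00076). EIF1B held 8.40% of the EIF1 and EIF1B total in control and 9.15% with overexpression, so the balance between them moved by less than its spread. EIF1AX, which encodes the partner eIF1A, passed in neither comparison and ran from 12.1 to 17.0 FPKM. EIF1AD, a related gene with an eIF1A-like domain, stood at 12.4, 10.9 and 11.97 FPKM in control, 14.3, 12.3 and 13.1 FPKM with overexpression and 9.38, 9.26 and 8.61 FPKM with knockdown. Its overexpression and control values overlapped in FPKM as deposited, while all knockdown values lay below. That overlap was narrow (12.3 FPKM in overexpression 2, 12.4 FPKM in control 1) and depends on the NUSAP1 reads in the totals. It passed at 0.25 ± 0.09 with overexpression (adjusted p = 0.0366) and at -0.39 ± 0.09 with knockdown (adjusted p = 0.0216). The first call was lost without any 1 of control 1, 2 or 3, overexpression 1 or 3 and knockdown 1 or 3 (0.18 to 0.29), and its value was 0.01 without the 4 libraries with hepatocyte transcripts. The second was lost without control 1 or 3 or any knockdown library (-0.40 to -0.35), and when control and knockdown were fitted alone with the replicate block.

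The subunits of eIF2, the GTPase that carries initiator tRNA, did not move together. The alpha subunit gene EIF2S1 stood at 17.1, 17.7 and 16.1 FPKM in control, 31.3, 31.4 and 33.8 FPKM with overexpression and 17.1, 18.2 and 17.7 FPKM with knockdown. Overexpression libraries were the highest without overlap (log2 fold change 1.01 ± 0.07, adjusted p = 8.17e-06). The beta subunit gene EIF2S2 stood at 97.8, 95.2 and 93.5 FPKM in control, 137, 141 and 133 FPKM with overexpression and 96.4, 98.6 and 95.5 FPKM with knockdown. It too was highest in every overexpression library (0.60 ± 0.06, adjusted p = 8.2e-05). The gamma subunit gene EIF2S3 went the other way, with 47.0, 55.6 and 51.1 FPKM in control, 41.6, 41.6 and 39.0 FPKM with overexpression and 55.2, 60.9 and 57.9 FPKM with knockdown. Overexpression was lowest without overlap, at a log2 fold change of -0.25 ± 0.08 (adjusted p = 0.0234). That call was lost without control 2 or overexpression 3 (-0.21 and -0.20), and the value was -0.16 without the 4 libraries with hepatocyte transcripts. EIF2A, a separate factor that can deliver initiator tRNA without eIF2, passed with overexpression at 0.65 ± 0.19 (adjusted p = 0.0193), from 7.90 to 11.4 FPKM in control to between 12.8 and 14.1 FPKM. Its call was lost without control 1 or 3 or overexpression 2 or 3 (0.54 to 0.63). EIF2D, which acts in non-canonical initiation and recycling, passed in neither comparison and ran from 5.43 to 7.66 FPKM.

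Of the eIF2B genes, whose product exchanges GDP for GTP on eIF2, 3 rose with overexpression. EIF2B2 (beta) stood at 6.87, 6.55 and 7.88 FPKM in control, 13.3, 11.8 and 12.1 FPKM with overexpression and 6.74, 6.53 and 7.29 FPKM with knockdown. Only overexpression stood apart, with no overlap, at a log2 fold change of 0.89 ± 0.10 (adjusted p = 0.000162). EIF2B5, the catalytic epsilon subunit gene, rose by 0.54 ± 0.06 (adjusted p = 0.000169), from 10.5 to 11.0 FPKM in control to between 14.7 and 14.9 FPKM. EIF2B4 (delta) stood at 8.53, 7.91 and 9.29 FPKM in control, 11.3, 10.6 and 12.1 FPKM with overexpression and 10.5, 11.1 and 11.5 FPKM with knockdown. Both treated groups lay above control without overlap, at 0.48 ± 0.09 (adjusted p = 0.00223) with overexpression and 0.35 ± 0.09 (adjusted p = 0.0376) with knockdown. The knockdown call was lost when any 1 library was left out other than overexpression 2 (0.28 to 0.39), and in the 2-group fit with the replicate block. EIF2B1 (alpha), the most abundant of the set, was at 14.8, 15.6 and 14.9 FPKM in control and 18.3, 17.3 and 18.2 FPKM with knockdown, which did not overlap. It narrowly missed the threshold there (0.23 ± 0.07, adjusted p = 0.0547), and its overexpression libraries, at 15.0, 14.2 and 15.6 FPKM, overlapped control. EIF2B3 (gamma) passed in neither comparison.

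**Figure D2:**
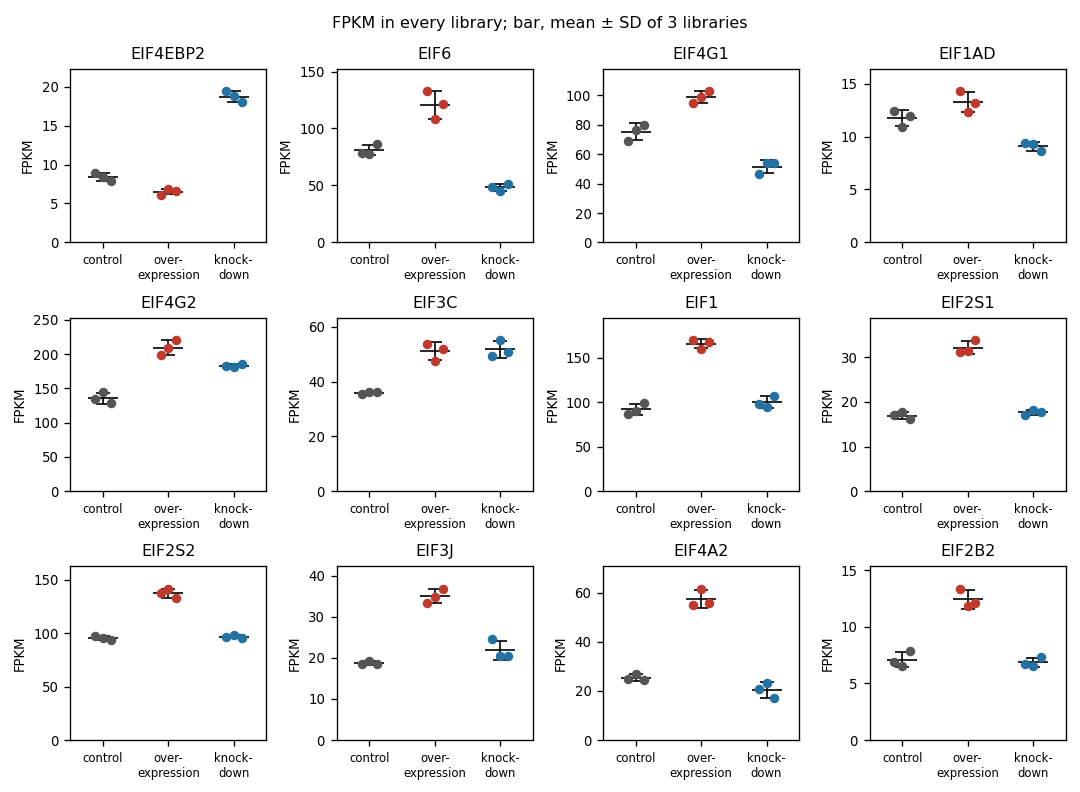
FPKM in every library for 12 initiation factor genes, each panel on its own axis from 0, with points for single libraries and a black bar for the mean ± SD of 3. EIF4EBP2 is highest and EIF6, EIF4G1 and EIF1AD are lowest with knockdown, while EIF1, EIF2S1, EIF2S2, EIF3J, EIF4A2 and EIF2B2 stand highest with overexpression.

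In eIF3, the scaffold that links the small subunit to eIF4G, 9 of 14 genes rose with overexpression and 0 fell. EIF3J, whose loosely attached product influences mRNA entry to the small subunit, stood at 18.6, 19.3 and 18.4 FPKM in control, 33.4, 34.8 and 36.8 FPKM with overexpression and 24.6, 20.5 and 20.5 FPKM with knockdown. The 3 groups did not overlap, and overexpression was far above both (0.98 ± 0.08, adjusted p = 2.72e-05). The large core subunit genes EIF3A (0.62 ± 0.12, adjusted p = 0.00276) and EIF3C (0.59 ± 0.07, adjusted p = 0.000137) also rose. EIF3C stood at 35.3, 36.1 and 36.1 FPKM in control, 53.9, 47.5 and 52.1 FPKM with overexpression and 49.3, 55.1 and 50.8 FPKM with knockdown. Both treated groups lay above control, and the knockdown change was 0.52 ± 0.07 (adjusted p = 0.00238). EIF3C has a near-identical copy, EIF3CL, among the members, so how reads were divided between them is uncertain. Their summed level in CPM (counts scaled to the library total without NUSAP1) was 628 in control, 945 with overexpression and 862 with knockdown.

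The remaining eIF3 genes that rose with overexpression had smaller log2 fold changes. They were EIF3CL, EIF3D, whose product can itself bind the cap, EIF3I, EIF3M, EIF3B and EIF3G, at 0.53, 0.57, 0.53, 0.40, 0.37 and 0.35. EIF3G, which carries an RNA recognition motif, stood at 37.9, 34.3 and 35.6 FPKM in control, 48.2, 38.4 and 43.3 FPKM with overexpression and 45.2, 48.7 and 43.7 FPKM with knockdown. All treated libraries lay above all control libraries, with adjusted p of 0.0129 for overexpression and of 0.046 for knockdown (0.34 ± 0.09). The overexpression call of EIF3G was lost without control 3 or overexpression 1 (0.25 and 0.32) and that of EIF3B without control 2 or 3 or overexpression 1 or 3 (0.32 to 0.36). Without the 4 libraries with hepatocyte transcripts the overexpression value of EIF3G was 0.04, that of EIF3B 0.13 and that of EIF3M 0.25. The knockdown call of EIF3G was lost without any control or knockdown library or without overexpression 3 (0.29 to 0.37), and in the 2-group fit with the replicate block. The 5 eIF3 genes that did not pass with overexpression were EIF3E, EIF3F, EIF3H, EIF3K and EIF3L. EIF3K, a peripheral subunit and the most abundant of the family, stood at 231, 224 and 265 FPKM in control, 212, 178 and 200.3 FPKM with overexpression and 304, 270.3 and 319 FPKM with knockdown. In FPKM as deposited the knockdown libraries were highest and the overexpression libraries lowest. The gap between overexpression 1 (212 FPKM) and control 2 (224 FPKM) was narrow and depends on the NUSAP1 reads in the totals. Neither difference from control passed (that of knockdown did with the replicate block, in the fits of 3 and of 2 groups). The difference between the treated groups did (-0.51 ± 0.11, adjusted p = 0.00472, edgeR).

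The cap-binding protein gene EIF4E had the lowest FPKM of the cap complex. It stood at 2.85, 2.89 and 2.94 FPKM in control, 3.16, 3.99 and 4.003 FPKM with overexpression and 2.49, 2.96 and 1.89 FPKM with knockdown. Overexpression lay above control without overlap (0.44 ± 0.14, adjusted p = 0.0296), and knockdown overlapped control. The call was lost without any control library or without overexpression 2 or 3 (0.38 to 0.44). The pseudogene row EIF4EP2 held 14.7 CPM in control beside 48.2 for EIF4E, and with both summed the ratio of overexpression to control was 0.39 on the log2 scale. In FPKM the order was reversed, with EIF4EP2 at a mean of 17.7 FPKM and EIF4E at 3.02 FPKM over all libraries. The FPKM of EIF4E, and its share below, thus depend on the length it was divided by. EIF4E2, a homologue that represses capped mRNAs, was 14.4, 14.7 and 14.6 FPKM in control, 12.8, 12.4 and 13.96 FPKM with overexpression and 17.5, 18.04 and 22.3 FPKM with knockdown. Neither difference from control passed by edgeR (adjusted p = 0.0538 with knockdown, passed with the replicate block in the fit of 3 groups but not of 2). The groups did not overlap in FPKM as deposited. With overexpression that gap was narrow and depends on the NUSAP1 reads in the totals, at an edgeR log2 fold change of -0.08. As a share of the summed FPKM of EIF4E, EIF4E2 and EIF4E3, EIF4E was 16.3% ± 0.208 in control, 21.9% ± 2.24 with overexpression and 11.3% ± 3.23 with knockdown (SD, n = 3), and no group overlapped another.

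The scaffold genes of the eIF4G family moved apart with knockdown. EIF4G1 (ENSG00000114867, chr3:184314495-184335357, plus strand, GRCh38), the main scaffold that joins eIF4E, eIF4A and eIF3, stood at 69.3, 76.6 and 80.2 FPKM in control, 94.7, 99.1 and 103 FPKM with overexpression and 46.6, 54.2 and 53.9 FPKM with knockdown. The 3 groups did not overlap. It rose by 0.47 ± 0.09 with overexpression (adjusted p = 0.00176) and fell with knockdown (-0.56 ± 0.09, adjusted p = 0.00473). The values were 0.53 and -0.49, neither called, without the 4 libraries with hepatocyte transcripts. EIF4G2, a homologue without the eIF4E-binding part that serves cap-independent and reinitiation events, stood at 134, 144 and 129 FPKM in control, 199, 209 and 220.3 FPKM with overexpression and 183, 181 and 186 FPKM with knockdown. It was higher in every treated library than in any control library, at 0.71 ± 0.07 (adjusted p = 4.06e-05) with overexpression and 0.42 ± 0.06 (adjusted p = 0.00493) with knockdown. EIF4G3, the second cap-linked scaffold, passed in neither comparison and ran from 10.3 to 15.1 FPKM. Of the summed FPKM of these 3 genes, EIF4G1 was 33.8% ± 2.38 in control, 30.7% ± 0.216 with overexpression and 20.8% ± 1.36 with knockdown, and EIF4G2 was 60.8% ± 1.82, 65.1% ± 0.445 and 73.9% ± 1.58. The knockdown shares overlapped those of no other group.

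The helicase gene EIF4A2 had the largest log2 fold change of any member with overexpression. It is listed as ENSG00000156976 at chr3:186783205-186789897 on the plus strand (GRCh38). It stood at 24.7, 27.0 and 24.6 FPKM in control, 55.0, 61.5 and 55.6 FPKM with overexpression and 20.8, 23.3 and 17.1 FPKM with knockdown. The groups did not overlap. The rise with overexpression was 1.26 ± 0.10 (adjusted p = 1.79e-05), and the knockdown difference narrowly missed the threshold (-0.34 ± 0.10, adjusted p = 0.0536) and passed with the replicate block in the fit of 3 groups but not of 2. Its close homologue EIF4A1 was at 53.7, 64.1 and 68.1 FPKM in control, 67.7, 33.7 and 67.2 FPKM with overexpression and 58.5, 54.0 and 67.8 FPKM with knockdown, and passed in neither. Overexpression 2 alone was low for EIF4A1, and the readthrough row SENP3-EIF4A1, which spans the same gene, was at its highest there (85.5 FPKM, against 59.2 and 60.9 FPKM in the other overexpression libraries). The sources used here do not say how reads were divided between these rows. EIF4A1 summed with SENP3-EIF4A1, EIF4A1P10 and EIF4A1P2 held 582 CPM in control, 715 with overexpression and 544 with knockdown. The log2 ratio of overexpression to control was then 0.30. Without these other rows, EIF4A2 made up 29.2% ± 2.52 of the EIF4A1 and EIF4A2 FPKM in control, 51.6% ± 11.3 with overexpression and 25.5% ± 5.05 with knockdown. The share was 44.8, 64.6 and 45.3% in overexpression 1, 2 and 3, all above control, and would be smaller with SENP3-EIF4A1 counted. The helicase cofactor genes EIF4B and EIF4H, and EIF4A3 of the exon junction complex, passed in neither comparison with control. EIF4B was below 60 FPKM in all overexpression libraries (58.2, 35.7 and 56.2 FPKM) and at 72.0, 84.7 and 109 FPKM with knockdown, with control between and overlapping both (56.8, 74.6 and 87.0 FPKM).

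**Figure D3:**
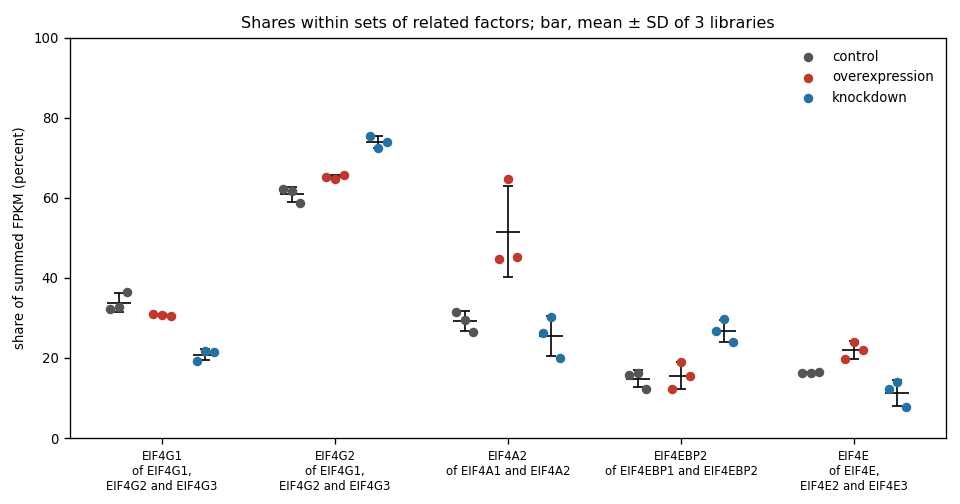
Share of each named gene in the summed FPKM of its close homologues, in percent, for each library (points) with the mean ± SD of 3 libraries (black bars). With knockdown EIF4G1 falls to 20.8% and EIF4G2 stands at 73.9% of the 3 EIF4G genes. EIF4A2 is 51.6% of its pair with overexpression, with the readthrough row SENP3-EIF4A1 not counted.

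EIF4EBP2, one of the eIF4E-binding proteins that block the meeting of eIF4E and eIF4G, had the largest knockdown change of any member. It is listed as ENSG00000148730 at chr10:70404145-70428618 on the plus strand (GRCh38, as matched to GENCODE 29). It stood at 8.94, 8.37 and 7.92 FPKM in control, 6.15, 6.87 and 6.56 FPKM with overexpression and 19.4, 18.8 and 17.98 FPKM with knockdown. No group overlapped another, with knockdown at 2.20 times control. The log2 fold change was 1.14 ± 0.08 with knockdown (adjusted p = 0.000162), -0.29 ± 0.08 with overexpression (adjusted p = 0.0144) and -1.42 ± 0.08 between overexpression and knockdown (adjusted p = 4.61e-06). The knockdown value ran from 1.07 to 1.18 when each library was left out in turn, all called, and was 0.997 without the 4 libraries with hepatocyte transcripts, where it was not called. In TPM the overexpression call was lost, where the median of all genes lay 0.14 higher. EIF4EBP1, the more abundant relative, passed in no comparison, at 47.8, 42.7 and 56.3 FPKM in control, 44.0, 29.3 and 35.5 FPKM with overexpression and 53.1, 44.6 and 56.9 FPKM with knockdown. EIF4EBP2 thus made up 14.8% ± 2.18 of the EIF4EBP1 and EIF4EBP2 FPKM in control, 15.6% ± 3.36 with overexpression and 26.8% ± 2.80 with knockdown, and the knockdown shares overlapped no other. EIF4ENIF1, which carries eIF4E into the nucleus, passed in neither comparison with control and ran from 4.62 to 5.89 FPKM.

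Among the late factors, EIF6, whose product keeps large subunits from joining small ones too early and also serves large subunit assembly, had the largest fall with knockdown. It is listed as ENSG00000242372 at chr20:35278907-35284772 on the minus strand. It stood at 78.7, 77.9 and 86.5 FPKM in control, 133, 108 and 122 FPKM with overexpression and 49.1, 45.3 and 51.0 FPKM with knockdown. The groups did not overlap. The log2 fold change was 0.66 ± 0.10 with overexpression (adjusted p = 0.000691), -0.75 ± 0.10 with knockdown (adjusted p = 0.00248) and 1.41 between the treated groups (adjusted p = 1.48e-05). Leaving out the 4 libraries with hepatocyte transcripts, the value against control was 0.48 with overexpression and -0.77 with knockdown, neither called. EIF5, which makes eIF2 hydrolyse GTP at the start codon, stood at 8.92, 20.1 and 9.17 FPKM in control, 23.8, 26.6 and 23.0 FPKM with overexpression and 24.7, 24.2 and 10.6 FPKM with knockdown. Control 2 stood well above the other controls and knockdown 3 well below the other knockdowns. The overexpression difference passed narrowly (1.03 ± 0.37, adjusted p = 0.0429) and was lost without control 1 or 3, any overexpression library or knockdown 1 or 2 (0.82 to 1.08). It was 1.503 without control 2. EIF5A, which encodes the hypusine-modified factor that eases stalled peptide bonds and is the most abundant late factor, passed in neither comparison, at 156, 128 and 166 FPKM in control, 153, 138 and 145 FPKM with overexpression and 195, 148 and 197 FPKM with knockdown. Its homologue EIF5A2 rose with overexpression (0.37 ± 0.12, adjusted p = 0.032), a call lost without any control library or overexpression 2 (0.26 to 0.40). EIF5B, the subunit joining GTPase, passed in neither comparison.

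Set directly against each other, overexpression was higher than knockdown for 19 of 48 genes and lower for 6, 39.6% and 12.5% of members, by the same edgeR test. Of all genes tested, 25.5% were higher and 24.5% lower (50.0% in either direction). Scaled by library totals alone, 17 were higher and 10 lower, beside 2788 higher and 3610 lower of all genes, whose median moved to -0.08. Without knockdown 2, the lower count was 10, beside 2960 of all genes. When the 4 libraries with hepatocyte transcripts were left out, 1 overexpression library remained. The median log2 fold change of the members was then 0.11, against -0.03 over all genes. The largest differences were in EIF4A2 (1.59 ± 0.10, adjusted p = 8.29e-06), EIF4EBP2, EIF6 and EIF4G1 (1.03 ± 0.09, adjusted p = 2.95e-05). The 6 lower genes were EIF2S3, EIF3K, EIF4B, EIF4E2, EIF4EBP2 and EIF5AL1. Of the 25 calls, 20 held whichever single library was left out. The call of EIF5AL1 was lost in 7 of these 9 fits (-0.38 to -0.26) and that of EIF4B in 3 (-0.82 to -0.53). Among the higher genes, EIF3D and EIF3I were lost in 5 each and EIF5B in 4.

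Genes that act on the initiation factors were read from a list outside the members, of which 38 were tested. With overexpression 18 were higher and 6 lower (47.4% and 15.8%, against 27.4% and 26.0% of all genes tested). The parts of the list differed. Of 18 genes for poly(A) binding and cap regulation, 5 were higher and 4 lower (27.8% and 22.2%), near the shares of all genes. Their median log2 fold change was 0.04, and -0.09 without the 4 libraries with hepatocyte transcripts. Of 10 eIF2 kinase and phosphatase genes, 5 were higher and 1 lower. Of all 38 genes, 6 were higher and 1 lower with knockdown (15.8% and 2.63%, against 7.02% and 7.43% of all genes tested). Without the 4 libraries with hepatocyte transcripts, 1 control and 1 overexpression library were left, too few to read calls from. The median log2 fold change was then 0.28 with overexpression, against -0.02 over all genes, and 0.06 with knockdown. Single values with overexpression there were -0.88 for EIF2AK1, 1.33 for EIF2AK3, 3.61 for PPP1R15A, 1.25 for PPP1R15B, 1.84 for SBDS and 1.16 for EFL1. EIF2AK2 was at 1.18, MKNK2 at -1.29 and PELO at 0.90. The eIF2 kinases did not share a direction with overexpression. EIF2AK1, the haem-regulated kinase, fell (-0.78 ± 0.07, adjusted p = 2.84e-05), while EIF2AK2, activated by double-stranded RNA, rose by 1.14 ± 0.17 (adjusted p = 0.000517) and EIF2AK3, the kinase of the endoplasmic reticulum, by 1.19 ± 0.13 (adjusted p = 8.88e-05). EIF2AK4, activated by uncharged tRNA, passed with knockdown (0.35 ± 0.09, adjusted p = 0.0309), and its coactivator GCN1 was higher in both comparisons (0.54 and 0.52). PPP1R15A, which brings a phosphatase to phosphorylated eIF2 alpha, stood at 8.998, 8.42 and 9.42 FPKM in control, 115, 109 and 116 FPKM with overexpression and 17.7, 17.5 and 17.6 FPKM with knockdown. All 3 groups stood apart, at log2 fold changes of 3.74 ± 0.08 (adjusted p = 4.65e-08) and 0.96 ± 0.07 (adjusted p = 0.000197). Its constitutive relative PPP1R15B rose by 1.24 ± 0.13 with overexpression (adjusted p = 7.2e-05).

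At the cap, the eIF4E kinase genes behaved differently from each other. MKNK2 stood at 12.1, 13.5 and 12.9 FPKM in control, 6.15, 4.88 and 5.80 FPKM with overexpression and 33.0, 19.96 and 23.3 FPKM with knockdown. The groups did not overlap, with -1.11 ± 0.17 for overexpression (adjusted p = 0.000791) and 0.97 ± 0.17 for knockdown (adjusted p = 0.00883). MKNK1 was lower in both comparisons (-0.75 and -0.94). The nuclear cap-binding genes NCBP1 and NCBP2 rose with overexpression by 0.50 ± 0.09 and 0.89 ± 0.17, and the main poly(A)-binding protein gene PABPC1 passed in neither comparison. Of 10 genes for recycling, reinitiation and factor modification, 8 rose with overexpression and 1 fell (80% and 10%, against 27.4% and 26.0% of all genes tested). Their median log2 fold change was 0.72, and 0.59 without the 4 libraries with hepatocyte transcripts. SBDS and EFL1, whose products release eIF6 from new large subunits, rose by 1.98 ± 0.16 (adjusted p = 2.27e-05) and 1.27 ± 0.08 (adjusted p = 6.34e-06). SBDS stood at 16.1, 14.8 and 15.1 FPKM in control, 54.6, 56.9 and 60.7 FPKM with overexpression and 25.3, 23.1 and 14.8 FPKM with knockdown. Only the overexpression libraries lay above all others. ABCE1, which splits ribosomes for the next round, rose by 0.79 ± 0.11 (adjusted p = 0.000386) and the rescue factor gene PELO by 1.02 ± 0.14 (adjusted p = 0.000384). Of the enzymes that modify eIF5A, DOHH rose (0.77 ± 0.17) and DHPS fell (-0.62 ± 0.21) with overexpression, with overlapping DHPS values.

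Other parts of the translation machinery gave different counts with overexpression. Of 12 elongation and termination factor genes, 4 were higher and 5 lower (33.3% and 41.7%, against 27.4% and 26.0% of all genes tested). EEF1A1, which delivers aminoacyl-tRNA, stood at 2384, 2614 and 2820.4 FPKM in control, 1366, 1268 and 1435 FPKM with overexpression and 2749.9, 2528 and 3029 FPKM with knockdown, with overexpression below all others (-0.86 ± 0.10, adjusted p = 0.000118). The release factor gene ETF1 rose by 0.96 ± 0.06 (adjusted p = 5.13e-06). Of 81 cytosolic ribosomal protein genes, 1 was higher and 19 lower (1.23% and 23.5%), with a median log2 fold change of -0.19. With knockdown the same lists held 2 higher and 1 lower of 12, and 2 higher and 1 lower of 81, against 7.02% higher and 7.43% lower of all genes tested. Without the 4 libraries with hepatocyte transcripts, the medians with overexpression were -0.16 for the 12 and -0.36 for the 81, against -0.02 over all genes. With knockdown they were 0.07 and 0.08. These lists were chosen with earlier results of these data known, and no test of the difference between lists was made.

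**Figure D4:**
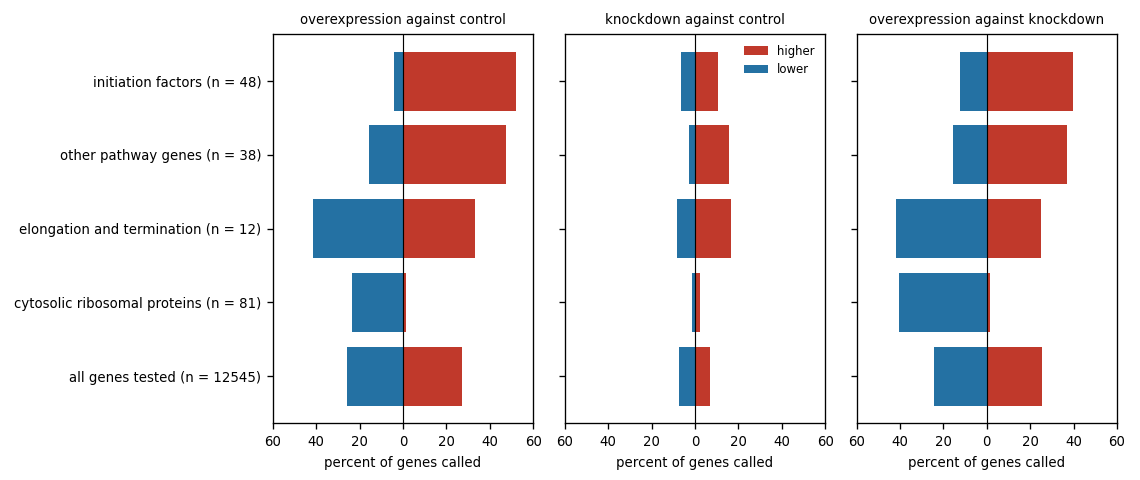
Percent of genes called higher (red, to the right) and lower (blue, to the left) in each list and among all genes tested, with 1 panel for each comparison. With overexpression 52.1% of initiation factor genes are higher and 4.17% lower, against 27.4% and 26.0% of all genes. Of 81 ribosomal protein genes, 1.23% are higher and 23.5% lower, the latter near the share of all genes.

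Many mRNAs of the translation machinery start with a C followed by a run of pyrimidines, the 5′ terminal oligopyrimidine (TOP) tract, through which mTOR signalling controls their translation. Start regions from RefSeq (GRCh38.p14) matched 40 of the 48 genes, leaving out EIF2S2, EIF3A, EIF3CL, EIF3E, EIF3G, EIF3H, EIF3L and EIF4EBP1. A tract, taken as a C and at least 4 further C or T with its first C within 5 bases of the annotated start, was found in 17 of 40 (42.5%), against 22.8% of 8967 tested genes and 79.7% of 64 ribosomal protein genes with a start region. By this rule a tract may end before the annotated start. Those of EIF1, EIF3C and EIF5A2, of 5 bases each, lie wholly before it. The windows below run from 10 bases before the start, on the strand of the gene, with the tract in capitals. The first 6 are the members with tracts of at least 9 bases, followed by 2 members with short tracts and 3 with none whose values are described above.
EIF3F, chr11:7987327-7987356, plus strand: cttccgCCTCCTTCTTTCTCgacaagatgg
EIF2S3, chrX:24054946-24054975, plus strand: gatttCCTTCCTCTTTTggcaacatggcgg
EIF2S3B, chr12:10505880-10505909, plus strand: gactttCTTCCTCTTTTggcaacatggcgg
EIF3D, chr22:36529147-36529176, minus strand: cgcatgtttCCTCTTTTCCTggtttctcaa
EIF3K, chr19:38619178-38619207, plus strand: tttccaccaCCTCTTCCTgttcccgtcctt
EIF3M, chr11:32583821-32583850, plus strand: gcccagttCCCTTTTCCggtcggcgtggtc
EIF4A2, chr3:186783567-186783596, plus strand: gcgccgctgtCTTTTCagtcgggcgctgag
EIF4EBP2, chr10:70404135-70404164, plus strand: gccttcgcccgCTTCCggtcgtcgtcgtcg
EIF2S1, chr14:67360318-67360347, plus strand: gaggttccgcatgcgcggtggagtgagcga
EIF4G1, chr3:184314596-184314625, plus strand: gcggggagccggaaatggttgtggactacg
EIF6, chr20:35284698-35284727, minus strand: tggtaagctggtgtgaggggaacctgggag

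Of the 17 genes with a tract, 9 were higher and 2 lower with overexpression (52.9% and 11.8%), and of the 23 without, 12 were higher and 0 lower (52.2%). EIF1, EIF3C and EIF5A2, whose tracts lie before the annotated start, were among the 9. Of all tested genes, 27.6% were higher and 27.1% lower with a tract, and 29.4% and 27.4% without. Leaving out the 4 libraries with hepatocyte transcripts, the median log2 fold change was 0.25 with a tract and 0.31 without, against -0.02 over all genes. In the full fit, the lower genes with a tract were EIF2S3 and EIF4EBP2. Among the 6 members with the longest tracts, EIF3D and EIF3M rose, EIF2S3 fell and EIF3F, EIF3K and EIF2S3B did not pass. EIF3F stood at 23.8, 19.6 and 22.7 FPKM in control and 18.1, 15.8 and 17.7 FPKM with overexpression, without overlap (-0.28 ± 0.12, adjusted p = 0.0721). With knockdown, 3 of 17 with a tract were higher (EIF3C among them) and 0 lower, and 1 of 23 without was higher and 3 lower. Of all tested genes, 7.69% were then higher and 8.33% lower with a tract, and 7.42% and 7.64% without. In the promoters, from 250 bases before to 50 after the start, the letters CACGTG on either strand were found in 10 of the 40 (10.4% of all 8967), CCGGAAG in 11 of 40 (20.9%) and TGATGNAA in none (1.51%). A match is a description of these letters, and an absence says only that they are not in these windows.

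Some rows may hold reads of a neighbour or copy. Beside EIF3C and EIF3CL, members with close copies in the table were EIF2S3 with EIF2S3B, EIF5A with EIF5AL1 and EIF5AP4, EIF3F with EIF3FP3, EIF4B with EIF4BP3, EIF4BP6 and EIF4BP7, and EIF2S2 with EIF2S2P4. With the copies summed in, the log2 ratio of CPM of overexpression to control was -0.22 for EIF2S3, as for the gene alone, and 0.63 for EIF2S2, against 0.64 alone. The loci of several members overlap that of another tested protein-coding gene, among them EIF4A2 with RFC4, EIF2S2 with RALY, EIF2A with SERP1, EIF3J with SPG11 and EIF4G2 with CTR9, on opposite strands. The sources used here do not say whether counting used strand, so reads of such pairs cannot be told apart.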

How the data were processed

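RNA was poly(A)-selected from 9 PANC1 libraries and made into libraries with a dUTP method, per the labels' protocols. The authors deposited whole-number read counts and FPKM values, per gene and library. Adapter trimming, alignment and quantification used cutadapt 1.9, HISAT2 2.0.4 and StringTie 1.3.4d among the tools named, per the submitters' processing notes. Settings, genome build and use of strand: not given in the sources used here. All 48 member identifiers matched GENCODE 29 (GRCh38) at the deposited position.

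The counts as deposited were tested with edgeR 4.0.16 in R 4.3.3, using quasi-likelihood tests and TMM scaling in 1 model of 3 groups (6 residual degrees of freedom). The common biological coefficient of variation was 0.226. The 12545 genes that reached 1 FPKM in 3 or more of 9 libraries were fitted, and p-values were adjusted over all of them by Benjamini-Hochberg, with calls at 0.05. Standard errors are approximate: each is the log2 fold change, unsigned, divided by the root of F. The scripts were tested on simulated data. Alternatives were other scalings and filters, DESeq2 1.42.0, limma 3.58.1 on log2(FPKM + 1), log2(FPKM + 0.1) and log2(TPM + 1), a fit with the replicate block, 2-group fits and leaving out libraries.

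Total counts ran from 57115172 to 73386227 a library, so the spread between libraries rather than counting limits the precision of all but the scarcest members. Shares of homologues use FPKM, since levels are compared between genes only per length. The size of a share therefore depends on the gene lengths used for the deposited FPKM.

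Same-numbered control and knockdown libraries deviated together from their group means (r = 0.139, 0.132 and 0.117 for numbers 1, 2 and 3). Control and overexpression libraries did not (-0.0930, 0.000225 and 0.00168), nor did all pairs of overexpression and knockdown (-0.0523, 0.251 and 0.0693). Differently numbered control and knockdown libraries ran from -0.0806 to -0.0468. In other group pairs, different numbers reached values as high: 0.141 for control 3 with overexpression 1, and 0.222 for overexpression 1 with knockdown 3. Correlations of this size are thus not confined to matching numbers. The labels do not say what a number marks.

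The members and lists were chosen with earlier results of these data known. The genes named one by one are the 8 members with the smallest adjusted p among those called in each comparison with control, those called in opposite directions, the most abundant of each role group, and EIF4E, EIF4G1, EIF2S1 and EIF4EBP1. Others were named after their values were seen.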

Additional observations from a re-analysis of the deposited data

How the results depend on the processing

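No member called in a comparison changed sign there under any alternative run. Of all 48 members plotted, 10 not called with overexpression and 13 not called with knockdown changed sign under some alternative, as did 8 between overexpression and knockdown, so no direction is read from them. Single-gene results under alternatives were counted only for members called in the main fit or with a fold change there that was large against its standard error. Of these results, 1469 stayed on their side of the threshold, 170 lost a call and 83 gained one.

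With overexpression against control, the 25 higher genes became 19 to 24 when each library was left out and 7 without the 4 libraries with hepatocyte transcripts. The 2 lower genes became 4 under library totals alone and under limma with log2(FPKM + 1) or log2(FPKM + 0.1), 0 in TPM, 5 with the replicate block, 1 to 4 when each library was left out and 0 without the 4 libraries. With knockdown against control, the 5 higher genes became 12 under library totals alone, 3 with no filter, 10 with a minimum of 5 FPKM, 10 by DESeq2, 9 by limma with either pseudocount, 14 in TPM, 9 with the replicate block and 3 to 8 when each library was left out. The 3 lower genes became 5 by DESeq2, 5 with the replicate block and 2 to 4 when each library was left out. Both knockdown counts were 0 without the 4 libraries, and 0 under the planned limit of 5 times the lowest hepatocyte sum, which took 5 libraries and so allowed no fit for overexpression. Between overexpression and knockdown, the 19 higher genes became 16 to 19 when each library was left out and 11 without the 4 libraries. The 6 lower genes became 10 under library totals alone and limma with log2(FPKM + 1), 11 with log2(FPKM + 0.1), 9 with a minimum of 5 FPKM, 4 to 10 when each library was left out and 3 without the 4 libraries. The counts over all genes moved as well. With knockdown the higher count was 881 in the main fit, 1051 under library totals alone and 486 with no filter. It was 771 with a minimum of 5 FPKM, 1354 by DESeq2, 1414 in TPM and 1087 with the replicate block. With overexpression the lower count went from 3264 to 3601 under library totals alone and 2248 in TPM. They did not always move in step with the member counts. With knockdown and a minimum of 5 FPKM, 10 members were higher instead of 5, while the count over all genes fell from 881 to 771. Whether the moved counts are particular to the members was not tested. The cause of these differences was not tested, beyond the fewer samples that leaving out libraries entails.

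The 4-library alternative and the 2-group fit of control and knockdown with the replicate block were chosen after seeing the data. In the latter, EIF1AD, EIF2B4 and EIF3G were not called, nor were EIF3B, EIF3I, EIF4E2, EIF4A2 and EIF5A2, which the block in the fit of 3 groups had added, and 4 members were higher and 2 lower. The fit of all groups with the block took no call away with knockdown, and with overexpression it added EIF1AX as higher and EIF3F, EIF3K and EIF4EBP1 as lower.

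Limits are the 3 libraries a group, the absence of a transfection control among the libraries analysed, rows that share reads with copies, and unknown use of strand. TPM moved the median of all genes by 0.14 in both comparisons with control, so a small rise there is relative to that shift.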
